A study of Homo sapiens with 9 samples.

Results

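The 10 genes described here encode feedback inhibitors and readouts of mitogen-activated protein kinase (MAPK) signalling: the dual-specificity phosphatases DUSP1, DUSP2, DUSP4, DUSP5, DUSP6 and DUSP10, the Sprouty-related proteins SPRED1 and SPRED2, the pseudokinase TRIB1 and the transcription factor EGR1. They were picked by name and function, with earlier results of the same arrays known, from 19775 genes with a probe set of their own. The probe set that stands for each gene was chosen by its mean signal over the 9 arrays, the highest being kept. For 8 of the 10 genes it reached 5.77 in log2 units, the level that separates the upper from the lower 50% of all probe sets. These 8 entered the tests among 11250 genes in all, and DUSP4 and DUSP6 did not.

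The cells were Daudi, a human line from a Burkitt lymphoma, in which a translocation drives MYC. C-Myc-sh cells had received a hairpin RNA against MYC, Slc7a5-sh cells a hairpin against the leucine transporter gene SLC7A5, and Ctrl-sh cells a control hairpin, and all 3 groups had been selected in puromycin for 48 h. Each group had 3 arrays labelled as biological replicates. Nothing in the labels ties them to separate infections, so the p-values measure the spread between these arrays.

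Growth factor and antigen receptors switch on RAS, which activates the kinase chain from RAF through MEK to ERK, while stress and inflammatory signals feed the parallel p38 and JNK chains. Active ERK induces its own inhibitors. The dual-specificity phosphatases remove phosphate from both the threonine and the tyrosine of the MAPK activation loop, and SPRED proteins act further up, where they bring the RAS inactivator neurofibromin to the membrane. DUSP1, DUSP2 and DUSP4 are inducible nuclear enzymes, DUSP5 is a nuclear and DUSP6 a cytoplasmic phosphatase of ERK, and DUSP10 acts mainly on p38 and JNK. TRIB1 is a catalytically weak kinase-like scaffold that binds MEK1 and the ubiquitin ligase COP1, and EGR1 is an immediate early gene whose transcription follows ERK activity through serum response factor.

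Promoter windows of 3 genes are shown, to place the sequence beside the values: DUSP2, whose signal was higher in C-Myc-sh, DUSP1, whose signal was higher in Slc7a5-sh, and EGR1, the classical ERK readout. Each window is from RefSeq on GRCh38.p14, runs from 250 bases before the annotated transcript start to 50 bases into the transcript, and is written 5′ to 3′ on the gene's strand, with motif matches in capitals.
DUSP2 (chr2:96145391-96145690, minus strand): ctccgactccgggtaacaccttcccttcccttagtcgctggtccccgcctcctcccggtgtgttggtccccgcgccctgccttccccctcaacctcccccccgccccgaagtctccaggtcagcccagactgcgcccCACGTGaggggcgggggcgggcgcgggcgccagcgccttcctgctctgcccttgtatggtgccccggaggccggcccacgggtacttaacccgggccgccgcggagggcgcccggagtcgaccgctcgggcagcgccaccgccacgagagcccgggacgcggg
DUSP1 (chr5:172771146-172771445, minus strand): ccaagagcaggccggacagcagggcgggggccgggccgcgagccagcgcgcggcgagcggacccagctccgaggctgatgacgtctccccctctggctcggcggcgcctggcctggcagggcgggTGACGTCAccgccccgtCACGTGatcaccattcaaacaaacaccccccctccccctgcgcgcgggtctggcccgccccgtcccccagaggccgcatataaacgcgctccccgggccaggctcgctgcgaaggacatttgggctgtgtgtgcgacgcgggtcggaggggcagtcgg
EGR1 (chr5:138465229-138465528, plus strand): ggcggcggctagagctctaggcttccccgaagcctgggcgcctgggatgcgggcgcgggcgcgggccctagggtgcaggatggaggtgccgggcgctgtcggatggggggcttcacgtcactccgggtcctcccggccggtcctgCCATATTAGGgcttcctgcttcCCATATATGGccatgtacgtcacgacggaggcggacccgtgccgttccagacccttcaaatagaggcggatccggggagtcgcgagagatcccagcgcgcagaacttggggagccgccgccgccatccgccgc

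The capitals in DUSP2 mark an E-box (CACGTG), the sequence bound by MYC with MAX and by several other helix-loop-helix factors, which began 113 bases before the start. DUSP1 had an E-box 108 bases and a cyclic AMP response element (CRE, TGACGTCA) 125 bases before its start. EGR1 had a pair of CArG boxes, the element of serum response factor, 105 and 83 bases before its start. Both strands were searched, and no matches overlapped in these windows. Of 35116 promoter windows of that length, 7.26% held the E-box, 1.85% the CRE and 1.29% a CArG box. In the same windows no match was found for ETS factors (CCGGAAGT, in 4.14% of all windows), AP-1 (TGANTCA, 7.71%) or the NF-kB consensus (11.3%). For ETS factors only these exact letters were searched, so other forms of an ETS site were not looked for. The windows of SPRED1, DUSP6 and DUSP10 and 1 of those of SPRED2 had no match to any of the 6 motifs, and another SPRED2 window had 2 AP-1 matches. No window of TRIB1, DUSP4 or DUSP5 was searched. A match is a description of these letters and was not tested for binding.

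The arrays were alike in scale, with medians between 6.05 and 6.26 on the log2 scale and correlations of 0.972 to 0.977 within groups across tested genes, which are not independent replicates. MYC signal stood at 46.9% of Ctrl-sh in C-Myc-sh and at 78.7% in Slc7a5-sh. SLC7A5 signal stood at 75.4% in C-Myc-sh and at 80.0% in Slc7a5-sh. All 4 were lower with a limma adjusted p of at most 0.00414, so each knockdown carried less of both transcripts. SLC7A5 in C-Myc-sh minus Slc7a5-sh was -0.08 (interval -0.24 to 0.07; limma adjusted p = 0.351), so values labelled Slc7a5-sh come from cells that kept most of the SLC7A5 signal and did not stand below C-Myc-sh in it.

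All 9 measured B-cell markers of 10 listed lay above the filter level. In C-Myc-sh against Ctrl-sh 4 of them were called higher and 4 lower, between CD22 at -1.25 and EBF1 at 0.85, and in Slc7a5-sh 1 higher and 5 lower, between PAX5 at -0.64 and CD79B at 0.28. Of the T and NK cell, myeloid, and epithelial and fibroblast markers, 4 of 12, 1 of 9 and 4 of 10 lay above the filter level. Those called were LCK at -2.20 and MS4A7 at 3.48 in C-Myc-sh, and COL1A1 at -0.59 in C-Myc-sh and -0.71 in Slc7a5-sh. MS4A7 averaged 8.01 in C-Myc-sh, 5.78 in Slc7a5-sh and 4.53 in Ctrl-sh. It passed the filter through its signal in C-Myc-sh, so its call there is a description and no test. The summed linear signal of the 9 myeloid markers was 441 to 619 in C-Myc-sh, 296 to 414 in Slc7a5-sh and 205 to 294 in Ctrl-sh, and without MS4A7 it was 207 to 358, 220 to 392 and 188 to 254, where the groups overlapped. The 12 T and NK cell markers summed to 604 to 894 in C-Myc-sh, 960 to 1149 in Slc7a5-sh and 1323 to 1418 in Ctrl-sh, and without LCK to 470 to 684, 345 to 444 and 563 to 640. The 10 epithelial and fibroblast markers summed to 545 to 743 in C-Myc-sh, 671 to 750 in Slc7a5-sh and 724 to 926 in Ctrl-sh. No marker was listed at 0, and the part of these markers in the results was not tested. An array of bulk RNA cannot tell fewer transcripts in every cell from fewer cells that carry them.

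The question put to each gene was how its transcript signal differed in C-Myc-sh and in Slc7a5-sh from Ctrl-sh, and between the 2 knockdowns. In C-Myc-sh cells TRIB1 fell to 7.83% of its Ctrl-sh signal, while DUSP2, DUSP5, DUSP10, SPRED1, SPRED2 and EGR1 rose by 1.67-fold to 8.48-fold. In Slc7a5-sh cells the changes were smaller: DUSP5 and DUSP1 rose by 1.82-fold and 1.61-fold and TRIB1 fell to 57.1% of Ctrl-sh. DUSP4 and DUSP6 had signals near the bottom of the range in all 3 groups.

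**Figure D1:**
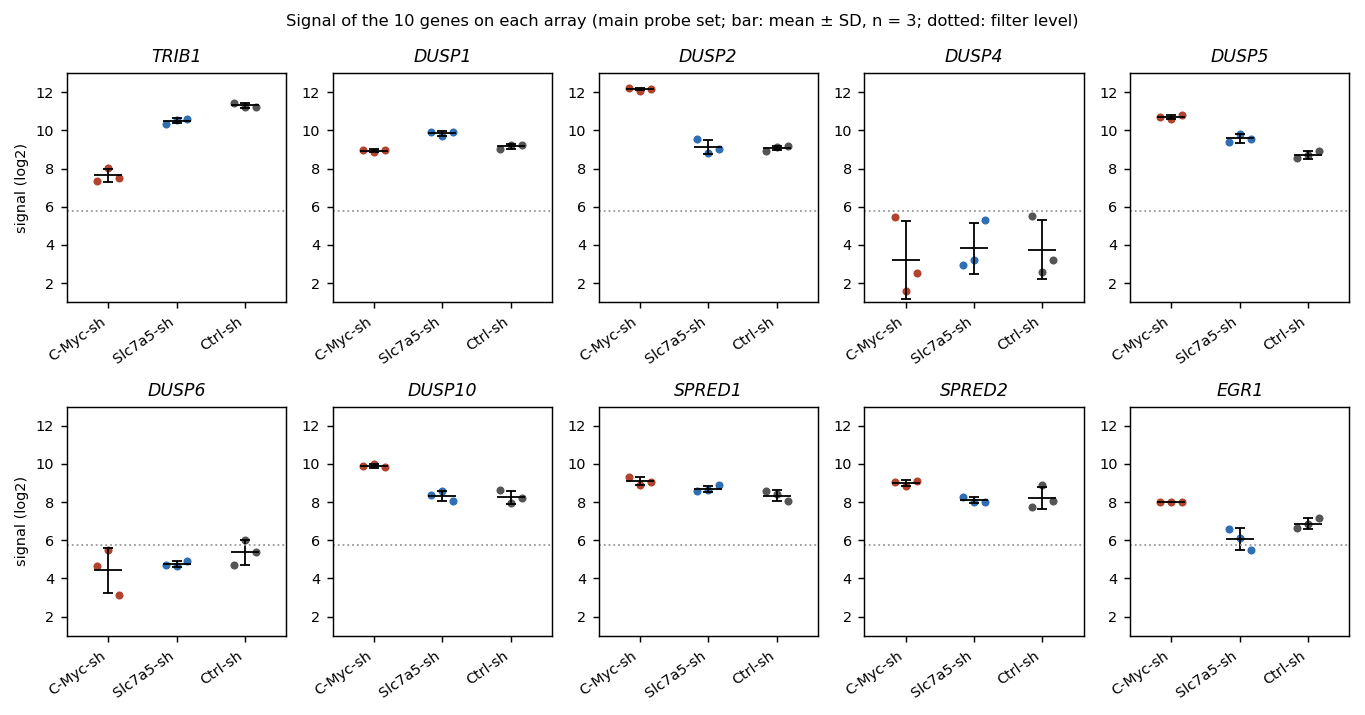
Log2 signal of the main probe set of each of the 10 genes on the vertical axis, for the 3 arrays of C-Myc-sh, Slc7a5-sh and Ctrl-sh on the horizontal axis. Points are arrays, bars the group mean ± SD (n = 3), and the dotted line the filter level of 5.77. TRIB1 is lowest in C-Myc-sh, DUSP2, DUSP5, DUSP10 and EGR1 are highest there, DUSP1 is highest in Slc7a5-sh, and DUSP4 and DUSP6 lie below the line on all but 1 array.

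TRIB1, the scaffold that links MEK1 and COP1, had log2 signals of 7.37, 8.05 and 7.51 in C-Myc-sh, 10.35, 10.57 and 10.61 in Slc7a5-sh and 11.47, 11.25 and 11.23 in Ctrl-sh. The 3 groups did not overlap, with C-Myc-sh lowest and Slc7a5-sh between it and Ctrl-sh. On the linear scale the group means corresponded to 199.8, 1457 and 2551 signal units. The log2 difference of C-Myc-sh from Ctrl-sh was -3.67 (SE 0.15; 95% confidence interval -4.00 to -3.35; limma adjusted p = 7.48e-11), a 12.8-fold lower signal. It was the second lowest difference of the 11250 tested genes in that comparison. In Slc7a5-sh the difference from Ctrl-sh was -0.81 (SE 0.15; interval -1.13 to -0.48; limma adjusted p = 0.0014). C-Myc-sh lay 2.87 below Slc7a5-sh on the log2 scale (difference -2.87, SE 0.15, limma adjusted p = 1.51e-09), so the knockdowns differed from each other as well. These values rest on 1 of 3 TRIB1 probe sets, the others having means of 4.69 and 3.63, under the filter level. With the mean of all 3 the change was -1.78 in C-Myc-sh (limma adjusted p = 0.0502) and 0.19 in Slc7a5-sh (limma adjusted p = 0.89), so both calls were lost and the sign in Slc7a5-sh turned.

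DUSP2, also called PAC-1, a phosphatase first found in activated lymphocytes, had log2 signals of 12.21, 12.09 and 12.18 in C-Myc-sh, 9.57, 8.82 and 9.03 in Slc7a5-sh and 8.94, 9.12 and 9.17 in Ctrl-sh. The C-Myc-sh arrays stood above all others, and the Slc7a5-sh arrays surrounded the Ctrl-sh arrays. The difference of C-Myc-sh from Ctrl-sh was 3.08 (SE 0.15; interval 2.77 to 3.40; limma adjusted p = 3.16e-10), an 8.48-fold higher signal. In Slc7a5-sh the difference was 0.06, with an interval of -0.25 to 0.38 (limma adjusted p = 0.797). The direct difference of C-Myc-sh from Slc7a5-sh was 3.02 (SE 0.15, limma adjusted p = 6.5e-10). The printed windows of both DUSP2 and DUSP1 hold an E-box, and DUSP1 changed by -0.22 in C-Myc-sh with no call. Whether the motif has a part in either value was not tested. DUSP2 was read by 1 probe set.

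DUSP5, the nuclear ERK phosphatase, was ordered by group without overlap. Its log2 signals were 10.69, 10.58 and 10.79 in C-Myc-sh, 9.37, 9.83 and 9.56 in Slc7a5-sh and 8.53, 8.71 and 8.92 in Ctrl-sh. C-Myc-sh was highest and Slc7a5-sh intermediate, the reverse of the order of TRIB1. The change against Ctrl-sh was 1.97 in C-Myc-sh (SE 0.13; interval 1.68 to 2.25; limma adjusted p = 1.09e-08) and 0.87 in Slc7a5-sh (SE 0.13; interval 0.58 to 1.15; limma adjusted p = 0.000311). C-Myc-sh exceeded Slc7a5-sh by 1.10 (SE 0.13, limma adjusted p = 6.88e-06). It kept all 3 calls under each of the 19 alternative settings, with changes of 1.87 to 2.06, 0.75 to 0.97 and 0.99 to 1.22. DUSP5 was read by 1 probe set, so the alternative probe set rules could not change its signals and were no check on it.

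DUSP10, which acts on p38 and JNK, had log2 signals of 9.87, 10.01 and 9.83 in C-Myc-sh, 8.37, 8.58 and 8.05 in Slc7a5-sh and 8.64, 7.96 and 8.20 in Ctrl-sh. As for DUSP2, the C-Myc-sh arrays were above the rest while the other groups overlapped. The change in C-Myc-sh was 1.64 (SE 0.18; interval 1.25 to 2.03; limma adjusted p = 2.25e-06). In Slc7a5-sh it was 0.07, with an interval of -0.33 to 0.46 (limma adjusted p = 0.828). A second DUSP10 probe set, also above the filter level, gave group means of 9.54 in C-Myc-sh, 7.68 in Slc7a5-sh and 7.57 in Ctrl-sh.

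DUSP1, the stress-inducible phosphatase MKP-1, moved in the other knockdown. Its log2 signals were 8.98, 8.87 and 8.99 in C-Myc-sh, 9.94, 9.70 and 9.90 in Slc7a5-sh and 9.01, 9.26 and 9.21 in Ctrl-sh. Every Slc7a5-sh array was above the arrays of both other groups. DUSP1 rose in Slc7a5-sh by 0.68 (SE 0.12; interval 0.43 to 0.94; limma adjusted p = 0.000804). In C-Myc-sh the difference from Ctrl-sh was -0.22 (interval -0.47 to 0.04; limma adjusted p = 0.136), and it passed only under quantile normalization (-0.35, limma adjusted p = 0.0221). C-Myc-sh was lower than Slc7a5-sh by 0.90 (difference -0.90, SE 0.12, limma adjusted p = 1.63e-05). DUSP1 has 3 probe sets, all of the kinds that may bind related transcripts. Those other than the main one had means of 5.97, close to the filter level, and 3.75, under it. Their sign was opposite to the main one in C-Myc-sh against Ctrl-sh (0.53 and 1.43). It was the same in Slc7a5-sh against Ctrl-sh (0.95 and 2.11) and between knockdowns (-0.42 and -0.68). Averaged over all 3, the C-Myc-sh change was 0.58. The averaged rise in Slc7a5-sh (1.25, limma adjusted p = 0.0905) and difference between knockdowns (-0.67, limma adjusted p = 0.277) lost their calls.

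DUSP4 and DUSP6 were weakly measured. The highest DUSP6 probe set had log2 signals of 4.65, 5.48 and 3.11 in C-Myc-sh, 4.68, 4.66 and 4.93 in Slc7a5-sh and 4.69, 5.997 and 5.40 in Ctrl-sh, and the groups overlapped. DUSP4 had 5.48, 1.56 and 2.54 in C-Myc-sh, 2.94, 3.19 and 5.33 in Slc7a5-sh and 5.49, 2.59 and 3.20 in Ctrl-sh, a spread within groups wider than any difference between them. Without the filter on low signal the DUSP6 change was -0.95 in C-Myc-sh (interval -2.79 to 0.90; limma adjusted p = 0.508) and -0.61 in Slc7a5-sh (interval -2.45 to 1.24; limma adjusted p = 0.767). For DUSP4 the changes were -0.57 (interval -3.17 to 2.04; limma adjusted p = 0.818) and 0.06 (interval -2.55 to 2.66; limma adjusted p = 0.987). The DUSP4 intervals include changes of several fold in either direction. Those of DUSP6 include falls of several fold, with upper limits of 0.90 in C-Myc-sh and 1.24 in Slc7a5-sh. Changes within these intervals could have gone undetected. Both genes had 3 probe sets, with means of 1.91 to 4.84, so another choice would not have brought them into the tests.

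SPRED1 and SPRED2 inhibit RAS activation of RAF. SPRED1 had log2 signals of 9.31, 8.92 and 9.03 in C-Myc-sh, 8.57, 8.62 and 8.89 in Slc7a5-sh and 8.57, 8.41 and 8.05 in Ctrl-sh. The groups touched but did not overlap, in the order of DUSP5. SPRED1 rose by 0.74 in C-Myc-sh (SE 0.17; interval 0.37 to 1.11; limma adjusted p = 0.00195). Its difference in Slc7a5-sh was 0.35 (interval -0.02 to 0.72; limma adjusted p = 0.158), and C-Myc-sh minus Slc7a5-sh was 0.39 (interval 0.02 to 0.76; limma adjusted p = 0.0735), which passed without Slc7a5-sh replicate 3 (0.49, limma adjusted p = 0.0488). With the mean of its 3 probe sets the C-Myc-sh change turned to -0.35 (limma adjusted p = 0.428). Among these, the probe set with a mean of 4.30, under the filter level, had a difference of -2.22. A second probe set above the filter level averaged 6.98 in C-Myc-sh, 7.17 in Slc7a5-sh and 6.55 in Ctrl-sh, with overlapping arrays.

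SPRED2 had log2 signals of 9.07, 8.82 and 9.10 in C-Myc-sh, 8.28, 7.98 and 8.01 in Slc7a5-sh and 7.75, 8.87 and 8.03 in Ctrl-sh. Ctrl-sh replicate 2 lay inside the C-Myc-sh range, and the other arrays of the 2 groups were apart. SPRED2 was higher in C-Myc-sh by 0.78 (SE 0.24; interval 0.27 to 1.29; limma adjusted p = 0.0125), a call lost without Ctrl-sh replicate 1 (0.54, limma adjusted p = 0.0675). Against Slc7a5-sh, whose arrays did not overlap with C-Myc-sh, the difference was 0.90 (SE 0.24, limma adjusted p = 0.00564). In Slc7a5-sh the difference from Ctrl-sh was -0.13 (interval -0.64 to 0.39; limma adjusted p = 0.748). Its further probe sets averaged 4.03 and 2.66, and the mean of all 3 lay under the filter level, so that alternative gave no test of SPRED2.

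EGR1, the immediate early factor, had log2 signals of 7.99, 7.98 and 7.99 in C-Myc-sh, 6.61, 6.09 and 5.47 in Slc7a5-sh and 6.63, 6.85 and 7.16 in Ctrl-sh. C-Myc-sh was highest, with an SD of 0.0049, and the lowest values were those of Slc7a5-sh. EGR1 rose in C-Myc-sh by 1.11 (SE 0.34; interval 0.39 to 1.83; limma adjusted p = 0.0114), or 2.15-fold. In Slc7a5-sh its difference was -0.82 (interval -1.54 to -0.10; limma adjusted p = 0.0902) and passed without Slc7a5-sh replicate 1 (-1.09, limma adjusted p = 0.0373). The direct difference of C-Myc-sh from Slc7a5-sh was 1.93 (SE 0.34; interval 1.21 to 2.65; limma adjusted p = 0.00022), a 3.80-fold higher signal. The 3 EGR1 probe sets may all bind related transcripts, and averaged together the C-Myc-sh change was 0.63 (limma adjusted p = 0.224). Those other than the main one had means of 5.72 and 5.71, under the filter level. Their C-Myc-sh differences from Ctrl-sh were 0.14 and 0.66, with overlapping arrays.

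**Figure D2:**
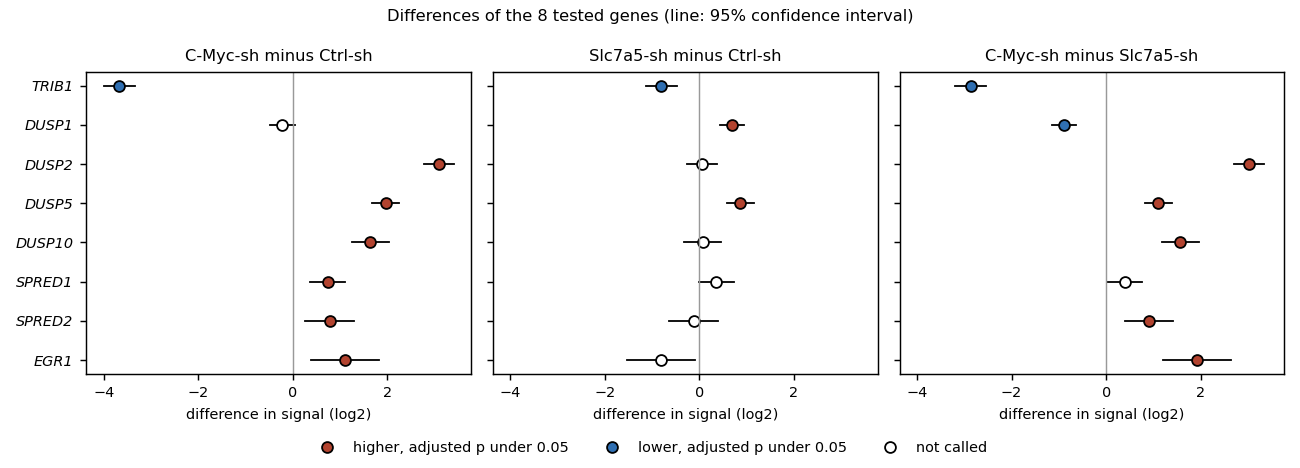
Log2 difference in signal (horizontal axis) of the 8 tested genes (vertical axis) for C-Myc-sh minus Ctrl-sh, Slc7a5-sh minus Ctrl-sh and C-Myc-sh minus Slc7a5-sh. Points are limma estimates from 9 arrays, lines 95% confidence intervals, and filled points passed an adjusted p of 0.05. In the left panel TRIB1 stands alone on the negative side at -3.67 among the called genes and DUSP2 is farthest to the right at 3.08, while the middle panel spans -0.82 to 0.87.

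Of the 10 genes, 6 were called higher and 1 lower in C-Myc-sh against Ctrl-sh, 1 was not called and 2 were not tested, where 54.9% of all tested genes were called, 28.7% higher and 26.2% lower. For changes of at least 1 on the log2 scale the count was 5 (TRIB1, DUSP2, DUSP5, DUSP10 and EGR1), beside 14.3% of all tested genes. In Slc7a5-sh against Ctrl-sh 2 were called higher and 1 lower, 5 were not called and 2 were not tested, where 25.3% of all tested genes were called, 14.3% higher and 11.0% lower. None of these 3 changes reached 1 in size, as did 1.48% of all tested genes. Between C-Myc-sh and Slc7a5-sh 5 genes were called higher and 2 lower, 1 was not called and 2 were not tested, where 49.5% of all tested genes were called, 24.4% higher and 25.1% lower. Of these, 5 reached 1 in size, beside 9.67% of all tested genes. The arrays did not overlap between C-Myc-sh and Ctrl-sh for 7 of the 8 tested genes, 5 higher and 2 lower (62.2% of all tested genes, 33.2% higher and 29.1% lower). Between Slc7a5-sh and Ctrl-sh this held for 5, 3 higher and 2 lower (39.8%, 21.8% higher and 18.0% lower), and between C-Myc-sh and Slc7a5-sh for all 8, 6 higher and 2 lower (56.5%, 28.8% higher and 27.7% lower). Median log2 changes over the 8 tested genes were 0.94 for C-Myc-sh and 0.06 for Slc7a5-sh against Ctrl-sh and 1.00 between the knockdowns, and over all tested genes 0.04, 0.03 and 0.03. The comparisons with Ctrl-sh share their control arrays. All group means of the 8 genes lay above the filter level, the lowest being that of EGR1 in Slc7a5-sh at 6.06.

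The 10 genes had 25 probe sets. Of these, 11 lay at or above the filter level: the 8 described and a further probe set each of DUSP1, DUSP10 and SPRED1. In C-Myc-sh against Ctrl-sh the further probe sets of DUSP10 and SPRED1 had differences of 1.97 and 0.43, with the sign of the main ones, and that of DUSP1 had 0.53, with the opposite sign. In Slc7a5-sh the 3 differences were 0.12 for DUSP10, 0.61 for SPRED1 and 0.95 for DUSP1, all with the sign of the main probe set. The 12 further probe sets of all 10 genes below the filter level had differences on both sides of 0.

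**Figure D3:**
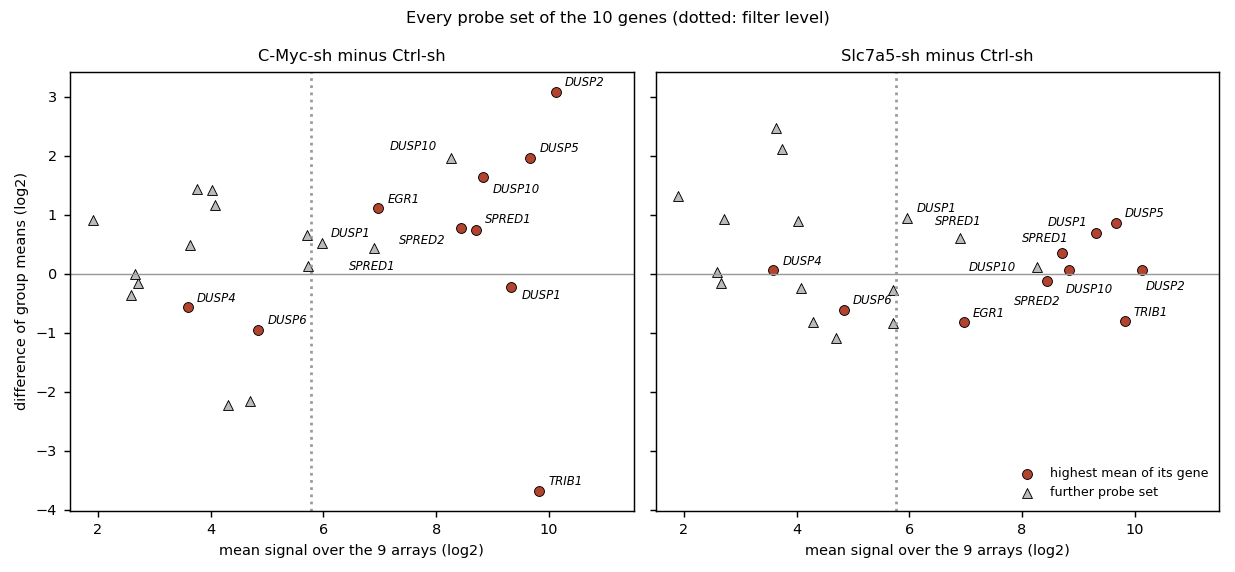
Difference of group means (log2, vertical axis) against mean signal over 9 arrays (log2, horizontal axis) for the 25 probe sets of the 10 genes, in C-Myc-sh minus Ctrl-sh (left) and Slc7a5-sh minus Ctrl-sh (right). Circles are the probe sets used, triangles further ones, and the dotted line the filter level of 5.77. To the right of the line the 2 DUSP10 probe sets lie close together at 1.64 and 1.97 in the left panel, and to its left the triangles spread on both sides of 0.

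The surrounding pathway was read from 6 lists of other genes. Among 21 other negative regulators of RAS and MAPK signalling, 14 were tested. In C-Myc-sh 4 rose and 5 fell (64.3% called, beside 54.9% of all tested genes; median log2 change 0.25). DUSP22, an atypical phosphatase that regulates JNK signalling and T-cell receptor signalling, rose by 2.54 (SE 0.09, limma adjusted p = 2.62e-11), and DUSP16, a phosphatase of JNK and p38, by 1.56 (SE 0.16). DOK3, an adaptor that restrains B-cell receptor signalling, fell by 3.04 on the log2 scale (SE 0.12, limma adjusted p = 4.38e-11), and PEBP1, the RAF kinase inhibitor protein, fell by 1.27. In Slc7a5-sh 1 rose and 1 fell (14.3% called, beside 25.3% of all tested genes; median 0.23): RASA2, a RAS GTPase-activating protein, at 0.42 and DOK3 at -0.72. Averaging over each gene's probe sets ended both calls (RASA2 0.15, limma adjusted p = 0.564; DOK3 -0.36, limma adjusted p = 0.23), and DOK3 was at -0.01 without the _s_at and _x_at probe sets.

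The core RAS-ERK cascade, from receptor adaptors to ELK factors, had 23 tested genes of 28 listed. In C-Myc-sh 5 rose and 6 fell (47.8% called, beside 54.9% of all tested genes; median -0.06), and in Slc7a5-sh 5 rose and 4 fell (39.1% called, beside 25.3%; median 0.01). Without Ctrl-sh replicate 2 the Slc7a5-sh count was 4, and averaging over probe sets gave 6 called genes in C-Myc-sh and 4 in Slc7a5-sh. ELK4, a partner of serum response factor, was higher in both, by 1.14 in C-Myc-sh (SE 0.07, limma adjusted p = 4.39e-09) and by 0.62 in Slc7a5-sh (SE 0.07, limma adjusted p = 3.24e-05; 0.44 and not called when its probe sets were averaged). In C-Myc-sh HRAS fell by 0.80 on the log2 scale. The RAS exchange factor SOS2 was at 1.02 in C-Myc-sh, and at 0.31 with no call when its probe sets were averaged. RASGRP2, another exchange factor, was at -0.94 and turned to 1.10 (limma adjusted p = 0.318) without the _s_at and _x_at probe sets. In Slc7a5-sh the adaptor GRB2 fell by 0.61, MAP2K1, which encodes MEK1, by 0.33 and RASGRP1 by 0.72 on the log2 scale.

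Of 21 genes of the p38 and JNK cascades 17 were tested. In C-Myc-sh 9 rose and 3 fell (70.6% called, beside 54.9% of all tested genes; median 0.42). In Slc7a5-sh 2 rose and 4 fell (35.3% called, beside 25.3%; median -0.0036), and 3 were called when the probe sets at or above the filter level were averaged. MAP3K8, counted in this list, encodes the kinase TPL2, which activates MEK of the ERK chain. MAP3K8 had a mean log2 signal of 11.62 in C-Myc-sh and 7.44 in Ctrl-sh, a change of 4.18 (SE 0.14, limma adjusted p = 1.16e-11). GADD45B, an activator of MAP3K4, changed by 2.10 (SE 0.10), a call lost without the _s_at and _x_at probe sets (1.00, limma adjusted p = 0.244). MAP3K1 and MAP3K5 rose by 0.80 and 0.86. In Slc7a5-sh GADD45A rose by 0.44 and MAPK13, a p38 isoform, fell by 0.78 on the log2 scale. MAPK12, another p38 isoform, was at -0.63 and MAP3K1 at 0.28, and averaged over each gene's probe sets they were -0.46 (limma adjusted p = 0.413) and -0.088 (limma adjusted p = 0.739).

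Immediate early genes other than EGR1 had 12 tested members of 23. In C-Myc-sh 6 rose and 2 fell (66.7% called, beside 54.9% of all tested genes; median 0.44), and in Slc7a5-sh 2 rose and 2 fell (33.3% called, beside 25.3%; median 0.14). The C-Myc-sh count was 5 with the filter at the 75th percentile, which tests fewer genes, and the Slc7a5-sh count was 2 with averaged probe sets. JUN, an AP-1 subunit, changed by 2.21 in C-Myc-sh (mean log2 signal 10.29, against 8.08 in Ctrl-sh; SE 0.15, limma adjusted p = 8.77e-09). IER5 rose by 1.88 in C-Myc-sh and by 0.54 in Slc7a5-sh, and KLF10 fell by 0.50 and by 0.47. KLF6 rose by 1.23 in C-Myc-sh. In Slc7a5-sh JUND was at -0.51 and the stress factor ATF3 at 0.84, and averaging over probe sets ended both calls (JUND -0.33, ATF3 0.49).

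Of 8 later ERK output genes 4 were tested. Of these, 1 was called in C-Myc-sh (ETV5) and 1 in Slc7a5-sh (EPHA4), beside 54.9% and 25.3% of all tested genes. Medians of the 4 were 0.55 in C-Myc-sh and -0.44 in Slc7a5-sh. Over all 8 measured genes, with those under the filter level, they were 0.55 and 0.46, so the sign in Slc7a5-sh depended on the filter. The ETS factor gene ETV5 averaged 7.56 in C-Myc-sh, 4.45 in Slc7a5-sh and 5.64 in Ctrl-sh. It passed the filter only through C-Myc-sh, so its call there is a description and no test, and it was lost without Ctrl-sh replicate 3 or C-Myc-sh replicate 2. EPHA4 was at -0.96 in Slc7a5-sh, and its call was lost without Ctrl-sh replicate 1 (-0.97) or 3 (-0.79) and without Slc7a5-sh replicate 1 (-0.91) or 3 (-0.73). Among 7 relatives and partners of TRIB1, 6 were tested, with 2 higher and 2 lower in C-Myc-sh (66.7% called, beside 54.9% of all tested genes; median -0.10) and 3 higher and 1 lower in Slc7a5-sh (66.7% called, beside 25.3%; median 0.18). TRIB2 fell with TRIB1, by 1.42 in C-Myc-sh (SE 0.07, limma adjusted p = 2.25e-10) and by 0.77 in Slc7a5-sh (SE 0.07, limma adjusted p = 2.74e-06). TRIB3, which is induced by ATF4, rose by 1.04 and by 0.81 in the same comparisons. CEBPB, of the C/EBP family that Tribbles proteins regulate, rose by 0.64 and by 0.47. STK40 was lower in C-Myc-sh, at -0.79, and COP1 was at 0.25 in Slc7a5-sh, where it lost its call when its probe sets were averaged (0.17, limma adjusted p = 0.103).

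**Figure D4:**
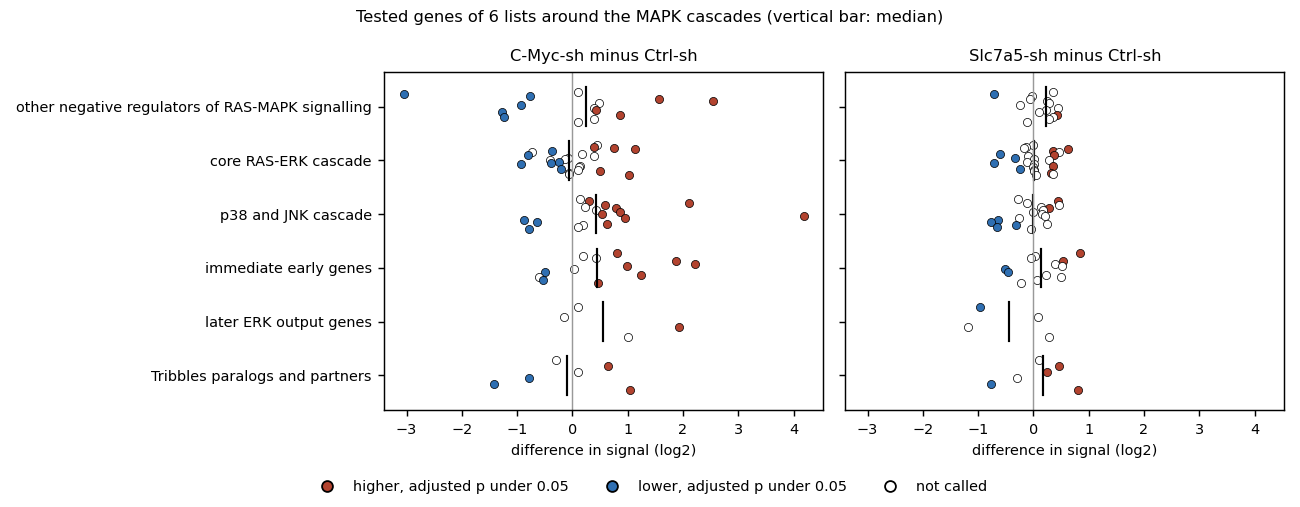
Log2 difference in signal (horizontal axis) of each tested gene of 6 lists (vertical axis) in C-Myc-sh minus Ctrl-sh (left) and Slc7a5-sh minus Ctrl-sh (right). Each point is a gene, filled where its adjusted p was under 0.05, and vertical bars are list medians. The left panel extends from DOK3 at -3.04 to MAP3K8 at 4.18, and the right panel is narrower, with called genes between -0.96 and 0.84.

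The genes whose signal followed TRIB1 and DUSP5 most closely were found by the root mean square difference of log2 signal over the 9 arrays, each gene being centred on its own mean. TRIB1 was followed by TCL1B, CSMD1 and PVRIG, at 0.14, 0.23 and 0.32, where the spread of TRIB1 itself was 1.59 on the same measure. In C-Myc-sh against Ctrl-sh these genes differed by -3.55, -3.48 and -3.67, and in Slc7a5-sh by -0.53, -0.46 and -1.27. DUSP5, with a spread of 0.82, was followed by NIPAL3, RNF11 and LCOR at 0.12, 0.15 and 0.16. The nearest genes to DUSP2, named after their values were seen, were ARHGAP31, CD40 and CD83, at 0.13, 0.22 and 0.24 with a DUSP2 spread of 1.45. CD40 and CD83, surface proteins of activated B cells, differed by 3.29 and 3.30 in C-Myc-sh and by 0.02 and 0.36 in Slc7a5-sh. These distances describe the 9 arrays and are no test.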

How the data were processed

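Total RNA of 9 Daudi samples was amplified and labelled with biotin by 3′ in vitro transcription and hybridised to Affymetrix arrays, per the labels' protocols. The authors deposited log2 signals, 1 for each of 54613 probe sets and array. The submitters' processing notes name MAS5. On the linear scale the mean after trimming 2% at each end was 497 on every array, which fixes log2 as the unit and hides any change in total RNA per cell. The number of arrays limits the precision.

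The platform annotation gave 41091 probe sets exactly 1 gene symbol; 1801 with several and 11721 with none were not used. The probe set with the highest mean stands for a gene, and genes under the median of all means (5.77) were left out. Genes were tested with limma 3.58.1 in R 4.3.3 (3 group means, eBayes with trend, two-sided, Benjamini-Hochberg over 11250 genes, called at adjusted p under 0.05). The fit was also run on simulated independent noise with far fewer changed genes than were called here. That run checks the code and does not vouch for these calls. The members and lists were chosen with earlier results of these data known. Named beside them are up to 4 called genes with the smallest p of each list and the 3 nearest genes of members called in all 3 comparisons; other names were chosen after their values were seen. Alternatives were another normalization, moderation, filters, probe set rules, arrays left out and a replicate block. Sequences are RefSeq's (GRCh38.p14), for 7 members. The search of the members left out windows on chromosome 8, which carries TRIB1 and DUSP4, and DUSP5 had no window.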

Additional observations from a re-analysis of the deposited data

How the results depend on the processing

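All results were recomputed under 19 alternatives, of which the mean of the probe sets at or above the filter level was added after seeing the data. The log2 changes of the members kept direction and side of the threshold in 427 instances, lost the call in 7, gained it in 3 and turned in 10. Turned values were: with the mean of all probe sets, DUSP1 0.58 and SPRED1 -0.35 in C-Myc-sh against Ctrl-sh, TRIB1 0.19 in Slc7a5-sh against Ctrl-sh and SPRED1 -0.40 between knockdowns; with the mean of those at or above the filter level, DUSP1 0.16 in C-Myc-sh; and in Slc7a5-sh against Ctrl-sh, DUSP2 without Ctrl-sh replicate 1 (-0.0077) or Slc7a5-sh replicate 1 (-0.15), DUSP10 without Ctrl-sh replicate 2 (-0.085) or Slc7a5-sh replicate 2 (-0.056) and SPRED2 without Ctrl-sh replicate 2 (0.20), the ranges over single arrays left out being -0.15 to 0.22, -0.085 to 0.25 and -0.36 to 0.20. Among list genes MAP3K1 turned to -0.088 in Slc7a5-sh with either mean and RASGRP2 to 1.10 in C-Myc-sh without the _s_at and _x_at probe sets, 40 calls were lost and 1103 kept. The cause of these changes was not tested. With the mean of all probe sets 3 members and 4664 genes were called in C-Myc-sh and 1 member and 1581 genes in Slc7a5-sh, where the reported counts are 7 and 6178, and 3 and 2843. Leaving out single arrays gave 6 to 7, 3 to 4 and 7 to 8 called members and 5695 to 6296, 2246 to 2811 and 5005 to 5524 called genes in C-Myc-sh, Slc7a5-sh and their direct comparison. With the replicate number as a block 7, 3 and 7 members and 6147, 2775 and 5526 genes were called, and no call of a named gene changed; same-numbered replicates did not deviate together (correlations of -0.02 to 0.02). The other counts of called list members moved by over 1.5 times in 27 instances and not in 315. EGR1 and SPRED2 could not be tested with the 75th percentile filter, nor SPRED2 with the mean of all probe sets, and signal near the bottom of the range limits what can be said of DUSP4 and DUSP6.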

Other observations

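C-Myc-sh and Slc7a5-sh were also set against each other for the surrounding pathway. In this comparison 49.5% of all tested genes were called. Of 14 tested other negative regulators 3 were higher and 5 lower in C-Myc-sh (57.1% called), with DUSP22 at 2.30 (SE 0.09, limma adjusted p = 1.22e-10) and DOK3 at -2.32 (SE 0.12, limma adjusted p = 1.13e-09). The p38 and JNK cascades had 10 higher and 1 lower of 17 tested (64.7%), with MAP3K8 at 3.96 and GADD45B at 2.22. Immediate early genes had 5 higher and 2 lower of 12 tested (58.3%; 4 called with averaged probe sets), with JUN at 1.81 and IER5 at 1.34. The core RAS-ERK cascade had 7 higher and 5 lower of 23 tested (52.2%; 6 called with averaged probe sets), among them HRAS at -1.17 and GRB2 at 0.78. TRIB2 was lower in C-Myc-sh than in Slc7a5-sh by 0.64 on the log2 scale (difference -0.64, SE 0.07, limma adjusted p = 1.22e-06).

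The genes nearest to the remaining members, named after their values were seen, were MID1IP1, ASNS and ZC3H8 for DUSP1 (root mean square differences of 0.09 to 0.10 on the log2 scale over 9 arrays), TBCK, GPR137B and TRIM22 for DUSP10 (0.15 to 0.19), and ZC3H12D, HLA-DPB1 and TMUB2 for EGR1 (0.28 to 0.31). ASNS, asparagine synthetase, differed from Ctrl-sh by -0.31 in C-Myc-sh and 0.62 in Slc7a5-sh, where DUSP1 differed by -0.22 and 0.68.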
